A study of Mus musculus with 24 samples.

Results

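Cytosolic ribosomal protein genes were taken from the symbols of the array annotation: names that start with Rpl or Rps and go on with a number, with Rplp0, Rplp1, Rplp2 and Rpsa added, and without the Rps6k kinases and pseudogenes. Only probe sets with 1 symbol were used, and each gene was read from its probe set with the highest mean over all 24 arrays. The rule found 49 genes of 18193 measured, 26 of the large and 23 of the small ribosomal subunit. All 49 symbols and Entrez IDs matched the RefSeq table of genes. Many other ribosomal protein genes were not reached, because their probe sets also name pseudogenes or predicted genes. Rplp1 is 1 of them.

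Expression was measured in cerebral cortex of adult mice heterozygous for a transgene that joins eGFP to ribosomal protein L10a and is driven by the astrocytic Aldh1l1 promoter. All groups carried the transgene, and no mice without it were analysed here. Immunoprecipitation of the tagged ribosomes gave the bound fraction (18 arrays of 1 animal each), and the supernatant gave the unbound fraction (6 arrays, each a pool of 3 animals). The 6 groups were sleep deprivation (kept awake for 4 h in the light phase with unfamiliar objects), waking (killed at 3 to 5 am in the dark phase, awake for at least 70% of the preceding hours) and sleep (killed at 3 to 5 pm in the light phase, asleep for at least 75% of them), each with 6 bound and 2 unbound arrays. Waking thus also differed from both other states in time of day. The labels of the pools name animals 1 to 3 and animals 4 to 6 of each state, and the bound arrays were put into the same 2 sets. Bound against unbound, 16 of 16 astrocyte markers were higher (median log2 difference 2.95) and 13 of 14 neuron markers lower (median -2.18).

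A ribosome holds 1 copy of nearly every ribosomal protein, and cells make these proteins in matched amounts. Their mRNAs begin with a run of pyrimidines, the 5′ terminal oligopyrimidine (TOP) tract, through which mTORC1 and the RNA-binding protein LARP1 control how many of them are translated. In brain these mRNAs are abundant in neurons and glia alike. A few genes have paralogs, such as Rpl22l1, Rpl39l, Rpl3l, Rpl7l1, Rps4l and Rps27l, whose products can take the place of, or resemble, a core protein.

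The start of transcription is shown for genes that return in the results, as 30 bases around an annotated start site (15 before and 15 from it on). The bases are from RefSeq promoters of build GRCm38.p6, on the strand that is transcribed. Where a gene had several annotated starts, one with a pyrimidine stretch was shown in preference. Capitals mark a stretch of at least 5 C or T, read onward from the C nearest to the annotated start (at most 10 bases away) that opens such a stretch. Pyrimidines just before that C stay in lower case, so the whole run can be longer than the capitals.
Rps6 (chr4:86857353-86857382, minus strand): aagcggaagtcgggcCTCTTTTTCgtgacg
Rplp2 (chr7:141447636-141447665, plus strand): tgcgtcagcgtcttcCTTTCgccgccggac
Rps27 (chr3:90213634-90213663, minus strand): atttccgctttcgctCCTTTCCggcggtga
Rps10 (chr17:27635230-27635259, minus strand): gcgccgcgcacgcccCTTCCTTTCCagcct
Rps27l (chr9:66946071-66946100, plus strand): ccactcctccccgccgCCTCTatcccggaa
Rpl10a (chr17:28328456-28328485, plus strand): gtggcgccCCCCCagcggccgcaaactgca
Rps4x (chrX:102189377-102189406, minus strand): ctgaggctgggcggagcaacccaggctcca
In the first 4 the stretch is read from the annotated start itself, and the base before it is also C or T. In Rps27l it is read from base 2, the base next to the annotated start, and in Rpl10a from 7 bases before the start. Rps4x has none. Of the 49 genes, 43 had a window in the promoter table. A gene with several annotated starts was counted if any of them had such a stretch, here and in the genes compared. Such a stretch could be read from the annotated start in 8 of them (18.6%), namely Rpl14, Rpl35, Rpl38, Rplp2, Rps10, Rps18, Rps27 and Rps6, against 2.67% of 17492 protein-coding genes and 0 of 69 mitochondrial ribosomal protein genes. Within 10 bases of the start one was found in 27 (62.8%), against 34.9% of protein-coding genes and 31 of 69 mitochondrial ribosomal protein genes (44.9%). It was searched on the transcribed strand only, and annotated starts can lie some bases from the true ones.

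Deposited values were log2 levels, and log2 differences are given relative to the median of all genes in the same comparison, with their standard error (SE). That median was 0.16 for bound against unbound, 0.11, 0.09 and 0.02 in the bound state comparisons (sleep deprivation against sleep, waking against sleep, sleep deprivation against waking), and 0.18 and 0.30 for sleep deprivation and waking against sleep in the unbound fraction. Calls rest on the differences as fitted, before that median was taken off, with a limma adjusted p under 0.05 as threshold. Exact ties between arrays occurred in 48 of 48 pairs of the same group and in 0 of 228 pairs of different groups, so that the arrays may have been normalized group by group, and offsets between groups cannot then be told apart from group differences. The probe sets of 5 genes (Rpl12, Rpl37, Rpl39l, Rpl3l and Rps16) lay below the median of all probe sets, 5.755 and are called dim here.

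Most ribosomal protein genes were higher in the bound than in the unbound fraction, by amounts that varied widely between genes. At an adjusted p under 0.05, 37 of 49 were higher and 2 were lower, where 42.2% of all genes were higher and 27.2% lower. The median of the 49 was 0.33, with quartiles of 0.11 and 0.74 and a range of -0.73 to 2.63. By subunit, 19 of 26 large-subunit genes were higher (median 0.48) and 18 of 23 small-subunit genes (median 0.24). In 22 genes all 18 bound arrays lay above all 6 unbound arrays, as they did in 17.2% of all genes, and in 0 genes did all lie below, as they did in 10.1% of all genes. In bulk RNA a larger share of cells with a transcript and more RNA per cell cannot be told apart.

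**Figure D1:**
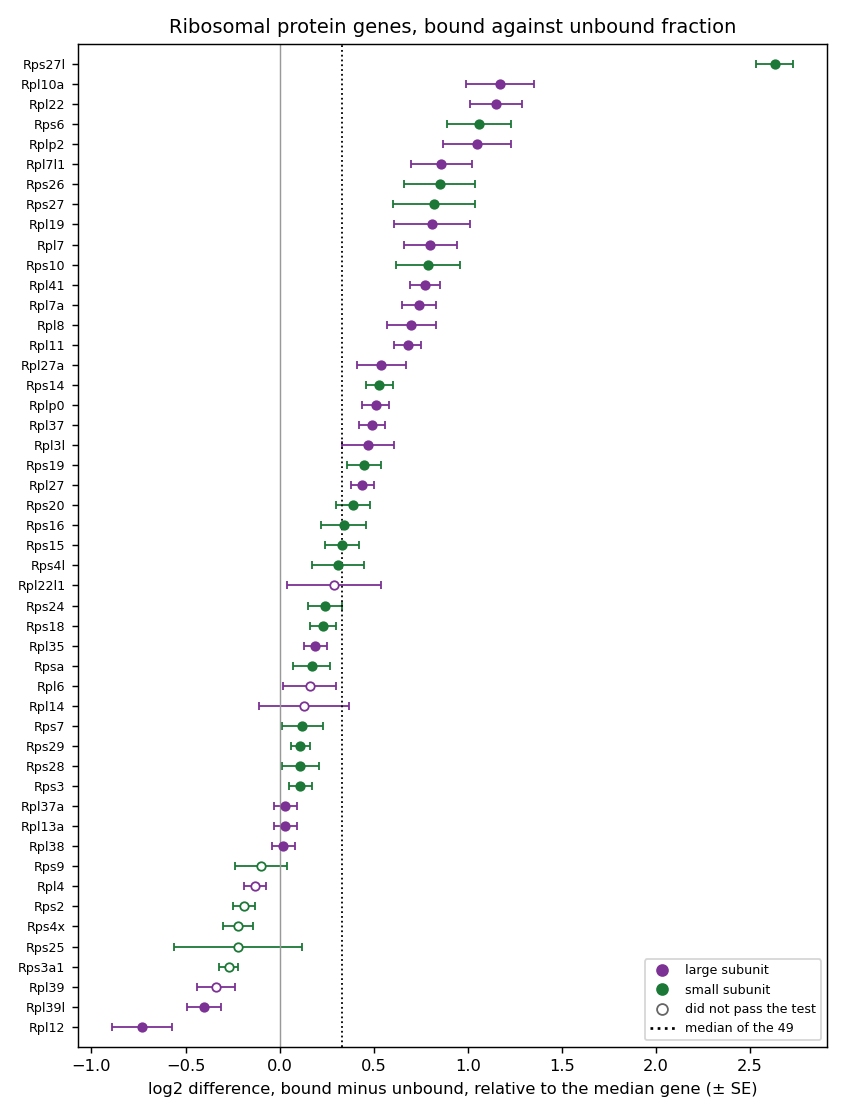
The log2 difference between bound and unbound fraction (x axis, relative to the median gene, bars are SE) is plotted for each of the 49 genes (rows). Most points lie right of 0, with Rps27l alone above 2 and Rpl12 lowest at -0.73.

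Rpl10a encodes the protein of the large subunit that the transgene carries. It ranged from 12.45 to 13.51 in bound arrays (median 13.07) and from 11.49 to 11.89 in unbound arrays (median 11.72). The fractions did not overlap, but the bound arrays fell into a high and a low group, animals 1 to 3 and animals 4 to 6. The log2 difference was 1.17 ± 0.18 (SE, limma adjusted p = 1.5e-06). Whether its probe set also measures the transcript of the transgene is not given in the sources used here.

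Rps27l, a paralog of Rps27 known as a target of p53, stood furthest apart. Its bound arrays ranged from 11.23 to 11.98 (median 11.64), and its unbound arrays from 8.31 to 9.44 (median 8.62). Every bound array was above every unbound one by a wide margin. The log2 difference was 2.63 ± 0.10 (limma adjusted p = 7e-16), a 6.19-fold difference, and the other bright probe sets of the gene gave 2.70 and 2.83. Rps27 itself, in the small subunit, gave 0.82 ± 0.22.

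The acidic stalk proteins of the large subunit, which recruit elongation factors, are encoded by Rplp0, Rplp1 and Rplp2. Rplp2 ranged from 13.18 to 14.13 in bound arrays (median 13.67) and from 12.24 to 12.62 in unbound arrays (median 12.45), a log2 difference of 1.05 ± 0.18. Rplp0, the base of the stalk, ranged from 11.22 to 11.56 (median 11.33) in bound and from 10.52 to 10.81 (median 10.68) in unbound arrays, a difference of 0.51 ± 0.07. For both genes the fractions did not overlap, and both passed the test (limma adjusted p = 4.94e-06 and 7.45e-09).

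Rps6, the small-subunit protein that S6 kinases phosphorylate, ranged from 8.98 to 10.06 in bound arrays (median 9.50) and from 8.06 to 8.535 in unbound arrays (median 8.30). All bound arrays were above all unbound ones, and the log2 difference was 1.06 ± 0.17 (limma adjusted p = 1.42e-06). The other genes among the 10 largest differences were Rpl22 (1.15 ± 0.14), a large-subunit protein, Rpl7l1 (0.86 ± 0.16), whose product resembles Rpl7, Rps26 (0.85 ± 0.19), Rpl19 (0.81 ± 0.20) and Rpl7 (0.80 ± 0.14). Rps15, at 0.33 ± 0.09, lay at the median of the 49.

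The 10 genes that did not pass included several core genes that were bright. Rps3a1 ranged from 12.71 to 12.91 in bound arrays (median 12.81) and from 12.81 to 13.01 in unbound arrays (median 12.92). Its log2 difference was -0.27 ± 0.05 relative to the median gene (limma adjusted p = 0.0788 as fitted), and 9 of 18 bound arrays lay below the lowest unbound one. Rps4x, an X-linked gene of the small subunit, was -0.22 ± 0.08, with overlapping ranges of 12.14 to 12.54 in bound and 12.13 to 12.65 in unbound arrays. Rps2, Rpl4, Rps9 and Rps25 gave -0.19, -0.13, -0.10 and -0.22. The 2 genes called lower, Rpl12 (-0.73 ± 0.16) and the paralog Rpl39l (-0.40 ± 0.09), were dim.

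Among the paralogs of core genes, Rps27l, Rpl7l1, Rps4l (0.31 ± 0.14) and the dim Rpl3l (0.47 ± 0.14) were higher, Rpl39l was lower, and Rpl22l1 (0.29 ± 0.25) did not pass. The 8 genes with a pyrimidine stretch read from the annotated start had differences of 0.02 to 1.06 (median 0.51). The 19 with one only nearby had a median of 0.29 and the 16 without one a median of 0.25, and their ranges overlapped.

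How many genes were called depended on scaling and on 1 of 2 measures of RNA quality. With each array centred on its median 23 were higher and 9 lower, where 27.8% of all genes were higher and 42.1% lower. With quantile normalization repeated over all arrays 25 were higher and 7 lower, where 39.6% of all genes were higher and 29.9% lower. The difference between the 3′ and the 5′ control probe set of Gapdh was 0.31 to 1.04 in bound arrays and 1.34 to 1.75 in unbound arrays. With that difference as a covariate 20 genes were higher and 7 lower (33.4% and 20.6% of all genes), the median of the 49 was 0.00, and Rpl10a (0.22 as fitted, limma adjusted p = 0.112) and Rplp2 (0.08, adjusted p = 0.494) did not pass. The Gapdh covariate moves with the fraction, and its part in the result cannot be told apart. The same measure of Actb overlapped between fractions, at -0.42 to -0.06 in bound arrays and -0.45 to 0.04 in unbound arrays. With it as a covariate 39 genes were higher and 2 lower. Direction and call were kept under each alternative that gave a value in 13 genes, Rpl11, Rpl22, Rpl27, Rpl37, Rpl3l, Rpl41, Rpl7a, Rpl7l1, Rplp0, Rps14, Rps19, Rps27l and Rps6. Of these, Rpl37 and Rpl3l had no value with dim genes left out, and Rpl37 and Rps14 had none without _x_at and _s_at probe sets.

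Probe sets of 1 gene did not always agree. Of 21 genes with more than 1 probe set that was not dim, 18 had a fraction difference of the same sign in all of them. Rps3 gave 0.11 ± 0.06 at its brightest probe set and -1.39 ± 0.19 at another. The brightest probe set of Rps9 gave -0.10 ± 0.14 and another 0.85 ± 0.14. The 4 of Rpl13a, a gene called higher, ran from -0.60 to 0.56. Those of Rps18 had 1 sign but varied, at 0.23, 0.01 and 1.22. Probe sets that name 1 ribosomal protein gene beside pseudogenes or predicted genes gave values for 24 further genes, of which 16 were higher and 0 lower (median 0.23). For 14 of the 49 genes such probe sets gave 7 higher and 1 lower (median 0.05).

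Other genes of the ribosome and its control were mixed. Of 76 mitochondrial ribosomal protein genes, whose products form the separate ribosome of mitochondria, 67 were higher and 1 lower (median 0.78). Mrpl36 gave 2.49 ± 0.43 and Mrps16 2.14 ± 0.26. Of 19 other genes known or proposed to carry a TOP tract, 6 were higher and 6 lower (median -0.15). The elongation factor gene Eef1d gave 0.91 ± 0.08 and the nucleosome assembly gene Nap1l1 -1.47 ± 0.14. Vim, an intermediate filament gene of astrocytes on that list, gave 3.10 ± 0.14. Of 50 genes of ribosome biogenesis 10 were higher, such as Sbds (1.22 ± 0.12), and 16 lower, such as the nucleolin gene Ncl (-1.88 ± 0.31; median -0.18). Of 25 genes of mTORC1, the ribosomal protein kinases and the MYC network (Myc, Mycn, Mycl and Max) 16 were higher and 4 lower (median 0.56). Eif4ebp1 (2.08 ± 0.21) and Eif4ebp2 (2.05 ± 0.34), which encode translation repressors that mTORC1 phosphorylates, were higher. Mtor (-1.25 ± 0.13) and Deptor (-1.97 ± 0.22), which encodes an inhibitor of mTOR, were lower.

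The states differed little in these genes. In the bound fraction sleep deprivation against sleep gave 2 genes higher and 0 lower, where 12.3% of all genes were higher and 2.02% lower, and the median of the 49 was -0.04. Waking against sleep gave 1 higher and 0 lower, where 9.07% of all genes were higher and 2.14% lower, with a median of 0.02. Sleep deprivation against waking gave 0 calls in limma, where 4.17% of all genes were higher and 2.67% lower, with a median of -0.05 and 4 genes at an unadjusted p under 0.05. In these comparisons 42, 42 and 43 of the 49 genes lay within 0.2 log2 units of the median gene.

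**Figure D2:**
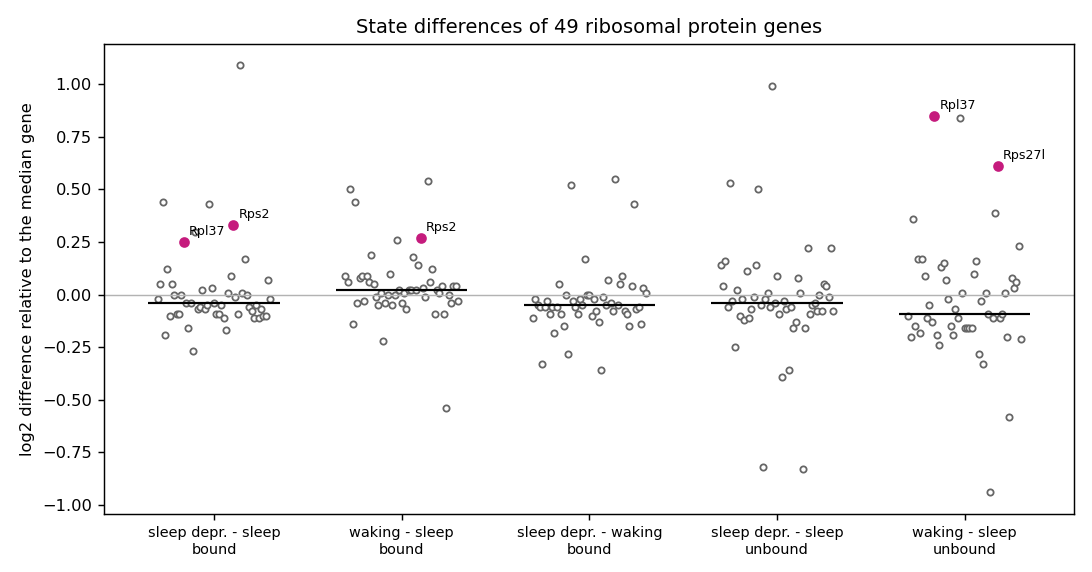
The log2 difference between states (y axis, relative to the median gene) is plotted for the 49 genes in 5 comparisons (x axis), with genes past the test filled and named and a bar at the median. The medians lie between -0.09 and 0.02.

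It was Rps2 that passed in both bound comparisons with sleep. Its product lies near the mRNA entry of the small subunit. It ranged from 12.31 to 12.50 after sleep deprivation (median 12.44), from 12.20 to 12.40 in waking (median 12.34) and from 11.88 to 12.06 in sleep (median 11.97). All 12 arrays of both waking states lay above all 6 sleep arrays. The log2 difference from sleep was 0.33 ± 0.07 after sleep deprivation (limma adjusted p = 0.000534) and 0.27 ± 0.07 in waking (limma adjusted p = 0.00399). After sleep deprivation it was the 1 gene called within animals 4 to 6 and within animals 1 to 3, where 5.46% and 6.72% of all genes were higher. In waking 0 genes were called within either set (limma, 3 and 6 of the 49 at an unadjusted p under 0.05), where 2.83% and 4.12% of all genes were higher. In the unbound pools, Rps2 had 12.42 and 12.22 after sleep deprivation, 12.23 and 12.24 in waking, and 12.30 and 12.24 in sleep, and these overlapped. The difference of the effects between fractions did not pass (adjusted p = 0.142 for sleep deprivation and 0.136 for waking). For both states it did pass with quantile normalization or an intensity trend, and for waking also with median centring or array weights. In neither state did it pass with bound arrays averaged to match the pools, without dim genes or with the mean of probe sets. Rps2 has a single probe set with 1 symbol. It is an _x_at probe set, so Rps2 had no value with _x_at and _s_at probe sets left out. Its 2 probe sets with several symbols did not repeat the result, at 0.00 and 0.02 after sleep deprivation and 0.00 and 0.03 in waking (adjusted p = 0.734 to 0.84).

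The other bound call was the dim Rpl37, with 4.06 to 4.43 after sleep deprivation (median 4.15), 3.87 to 4.34 in waking (median 4.12) and 3.77 to 3.90 in sleep (median 3.82). The sleep-deprived arrays lay above the sleep arrays, by 0.25 ± 0.09 (limma adjusted p = 0.0128). Its 3 brighter probe sets with several symbols gave -0.04, 0.19 and -0.04 and none passed. Rps25, a small-subunit gene used by some viral internal ribosome entry sites, was widely spread, at 6.22 to 8.61 after sleep deprivation (median 7.32) and 5.16 to 6.87 in sleep (median 6.35). The groups overlapped, and the difference of 1.09 ± 0.41 did not pass (adjusted p = 0.0571). Rpl10a, Rplp0, Rplp2 and Rps6 gave -0.02, -0.04, -0.09 and -0.10 after sleep deprivation and 0.09, -0.04, 0.01 and -0.04 in waking, and none passed. The interval of these differences is wide for Rpl10a, Rplp2 and Rps6, whose SE was 0.22 to 0.24.

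With the replicate number as a block, which takes up the difference between the sets of animals, more genes passed. In bound sleep deprivation against sleep 6 were higher, namely Rpl12, Rpl37, Rpl7l1 (0.43, adjusted p = 0.0281), Rps2, Rps25 (1.09, adjusted p = 0.025) and Rps27 (0.17, adjusted p = 0.0371). In bound waking against sleep 4 were higher, namely Rpl12, Rpl14 (0.44, adjusted p = 0.0409), Rpl37 and Rps2, and the paralog Rps4l was lower (-0.54, adjusted p = 0.0398). Of all genes 17.7% were higher after sleep deprivation and 13.2% in waking in that fit, and 3.59% and 3.66% were lower.

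In the unbound pools, waking against sleep gave 2 genes higher and 0 lower, where 5.71% of all genes were higher and 0.605% lower (median -0.09). Rps27l had 9.44 and 9.33 in waking, against 8.62 and 8.31 in sleep, a log2 difference of 0.61 ± 0.18 (limma adjusted p = 0.0442). The dim Rpl37 had 4.04 and 4.09 in waking, against 2.91 and 2.91 in sleep (0.85 ± 0.15, limma adjusted p = 0.0308). In neither gene did the groups overlap, as waking lay above sleep in 42 of the 49 genes and in 55.5% of all genes, and both calls were lost when any 1 of the 6 pools was left out. Sleep deprivation against sleep gave 0 calls in limma, where 1.42% of all genes were higher and 0.451% lower, with a median of -0.04 and 3 genes at an unadjusted p under 0.05.

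The effects of state were also compared between fractions. For waking, 2 genes had a lower effect in the bound than in the unbound fraction and 0 had a higher one, where 3.71% of all genes were lower and 1.89% higher. They were the dim Rpl37 (-0.65 ± 0.17, limma adjusted p = 0.00444) and Rps27l (-0.70 ± 0.25, limma adjusted p = 0.035). Neither call held under every alternative. In bound arrays Rps27l ranged from 11.23 to 11.80 in waking (median 11.56) and from 11.34 to 11.70 in sleep (median 11.63), so the levels overlapped there. For sleep deprivation 1 gene had a higher effect, Rpl41, which encodes a very short protein of the large subunit, where 2.91% of all genes were higher and 1.98% lower. Rpl41 had 12.82 and 12.76 in unbound pools after sleep deprivation, against 13.44 and 13.43 in sleep. In bound arrays it ranged from 14.07 to 14.34 after sleep deprivation (median 14.21) and from 13.94 to 14.35 in sleep (median 14.17). The unbound values were apart by state and the bound ones overlapped, and the difference of the effects was 0.76 ± 0.19 (limma adjusted p = 0.0317). The other bright probe set of Rpl41 gave -0.11 ± 0.17. The call was lost when any 1 of the 4 unbound pools of these states was left out, and that of Rps27l for waking when any 1 of 7 arrays was.

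**Figure D3:**
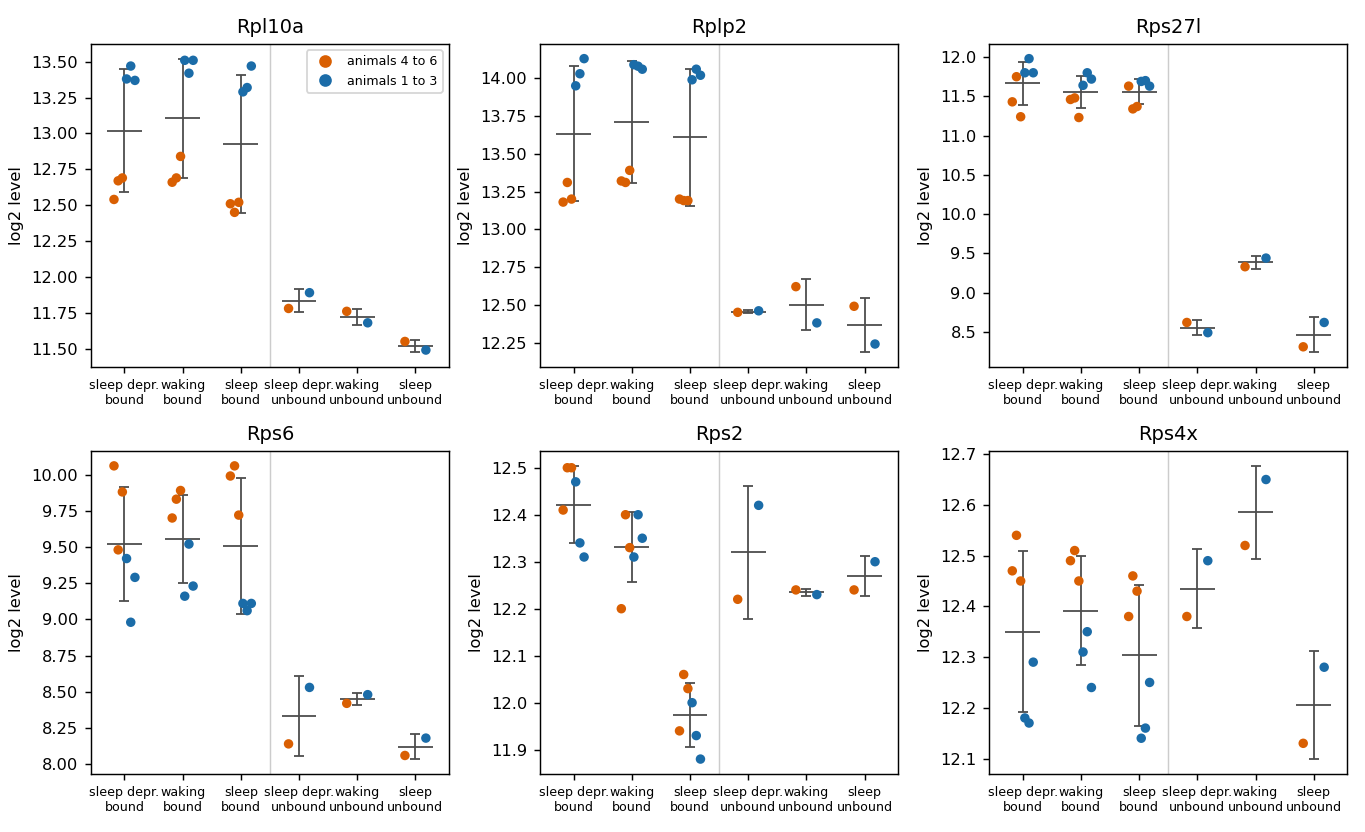
The log2 level (y axis) on each array is plotted for 6 genes in the 6 groups (x axis), with points coloured by set of animals and bars at mean ± SD. Rpl10a and Rplp2 split by set in every bound group, Rps6 and Rps4x split the other way, and Rps2 is low in bound sleep.

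Genes that act on the ribosomal protein genes, or belong to other ribosomes, were read in the same comparisons. In the bound fraction 12.3% of all genes were higher after sleep deprivation and 9.07% in waking. There 3 of 25 genes of mTORC1, the kinases and the MYC network were higher after sleep deprivation. They were Mycl (1.41 ± 0.45) of the MYC network, the stress-response gene Sesn2 (0.51 ± 0.17) and Ddit4 (0.21 ± 0.09). The products of Sesn2 and Ddit4 inhibit mTORC1. In waking 3 were higher, Max (0.59 ± 0.22) of the MYC network, Ddit4l (0.45 ± 0.16) and Ddit4 (0.22 ± 0.09). Of 50 biogenesis genes Nop2, an rRNA methyltransferase gene, was higher after sleep deprivation (0.44 ± 0.14) and in waking (0.55 ± 0.14), where Bysl (0.54 ± 0.15) and Gnl3 (0.30 ± 0.11) were higher too. Of 76 mitochondrial ribosomal protein genes 6 were higher after sleep deprivation, Mrpl41 most (0.45 ± 0.09), and 1 in waking. In these bound comparisons with sleep none of these lists had a lower gene, nor did the 19 other TOP genes have a gene called. In unbound waking against sleep, with 2 pools per state, 5.71% of all genes were higher and 0.605% lower. Mlst8 (1.28 ± 0.19), which encodes a subunit of the mTOR complexes, and Tsc1 (0.69 ± 0.17), whose product restrains mTORC1, were higher there. Eif4ebp1 (-1.22 ± 0.18) was lower. The biogenesis genes Polr1a (0.70 ± 0.19), Noc4l (0.59 ± 0.16) and Ebna1bp2 (0.54 ± 0.17) and the mitochondrial Mrpl1 (0.86 ± 0.25) were higher there too. None of these unbound calls held with the replicate block, quantile normalization or median centring, where 0 of all genes were called. In unbound sleep deprivation against sleep Mlst8 was higher (1.10 ± 0.19).

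More of these genes differed between the sets of animals than between states in the bound fraction. The median level of the 49 genes was 12.36 to 12.50 on the 9 arrays of animals 4 to 6, and 12.60 to 12.88 on the 9 arrays of animals 1 to 3. The sets did not overlap in any state. In a fit with state as a term, 26 genes were lower and 7 higher in animals 4 to 6, where 21.0% of all genes were lower and 22.9% higher. The median difference was -0.24, against a median gene of 0.01 as fitted. In 21 genes all arrays of animals 4 to 6 lay below all arrays of animals 1 to 3, as in 6.27% of all genes, and in 1 gene all lay above, as in 6.10% of all genes.

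**Figure D4:**
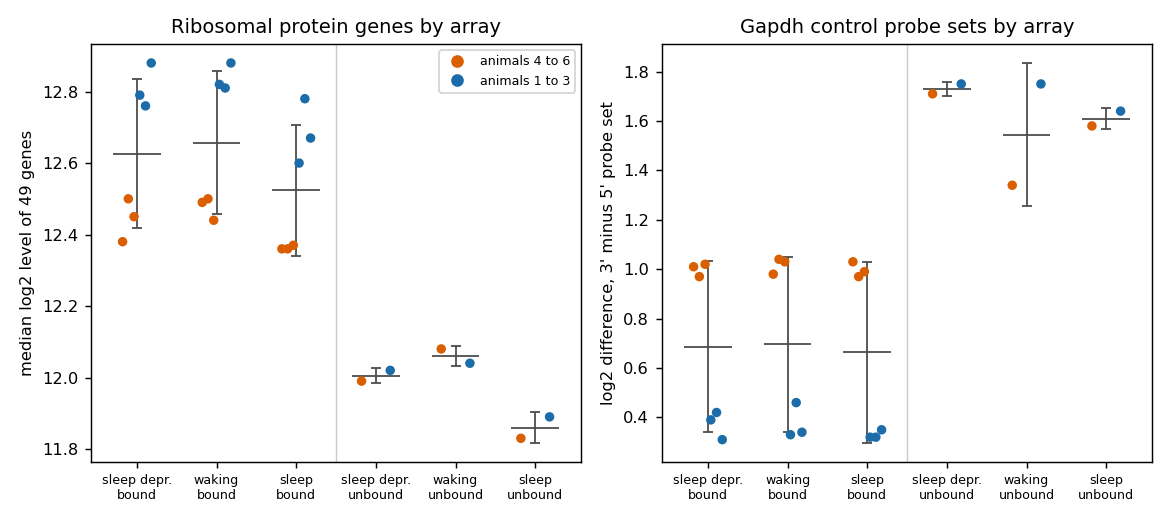
The median log2 level of the 49 genes (left) and the log2 difference between the 3′ and 5′ control probe sets of Gapdh (right) are plotted by array in the 6 groups, coloured by set of animals, with bars at mean ± SD. In each bound group animals 4 to 6 are lower on the left and higher on the right.

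Rpl22l1, the paralog of Rpl22, differed most, with 9.80 to 10.25 in animals 4 to 6 (median 10.01), against 10.87 to 11.43 in animals 1 to 3 (median 11.06), a log2 difference of -1.08 ± 0.08 (limma adjusted p = 1.19e-08). Rpl19, a large-subunit gene, had 12.36 to 12.58 in animals 4 to 6 (median 12.45), against 13.25 to 13.43 in animals 1 to 3 (median 13.37), a difference of -0.91 ± 0.05 (limma adjusted p = 4.27e-10). Rpl10a had 12.45 to 12.84 (median 12.66), against 13.29 to 13.51 (median 13.42), a difference of -0.81 ± 0.05 (limma adjusted p = 2.55e-09). None of these ranges overlapped. The other genes among the 10 most negative differences were Rps27 (-0.92 ± 0.08), Rps26 (-0.82 ± 0.06), Rplp2 (-0.80 ± 0.05), Rps10 (-0.73 ± 0.06), Rpl6 (-0.61 ± 0.05), Rpl7 (-0.60 ± 0.05) and Rpl22 (-0.57 ± 0.07).

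The genes that were higher in animals 4 to 6 were Rps25 (0.73 ± 0.29), Rpl14 (0.69 ± 0.16), Rps6, Rps9 (0.45 ± 0.10), Rpl7l1 (0.38 ± 0.13), Rps4x (0.22 ± 0.05) and the dim Rpl39l (0.22 ± 0.07). Rps6 had 9.48 to 10.06 in animals 4 to 6 (median 9.885), against 8.98 to 9.52 in animals 1 to 3 (median 9.16), with a slight overlap and a difference of 0.63 ± 0.09 (limma adjusted p = 2.37e-05). Rps4x had 12.38 to 12.54 (median 12.46), against 12.14 to 12.35 (median 12.24), without overlap. Rplp0, Rps2 and Rps3a1 gave 0.01, 0.03 and 0.00 and did not pass. The call for Rps25 was lost when any 1 of 12 of the 18 arrays was left out, and that for Rpl7l1 for any 1 of 4. Rps9 and Rps4x turned direction with the mean of all probe sets of a gene (-0.08 and -0.02 as fitted, limma adjusted p = 0.301 and 0.801).

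In the unbound pools the medians of the 49 genes overlapped, at 11.83 to 12.08 for animals 4 to 6 and 11.89 to 12.04 for animals 1 to 3, and limma called 0 of all genes (2 of the 49 at an unadjusted p under 0.05). The difference between the sets was more negative in the bound than in the unbound fraction in 19 genes and more positive in 4, where 9.23% of all genes were more negative and 11.9% more positive. For Rplp2 that difference was -1.01 ± 0.10, for Rpl19 -0.92 ± 0.10 and for Rpl10a -0.87 ± 0.10, and for Rpl14 it was 1.53 ± 0.31. When the effects of state were compared between the sets, limma called 0 of all genes (1 of the 49 at an unadjusted p under 0.05 for waking and 3 for sleep deprivation).

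**Figure D5:**
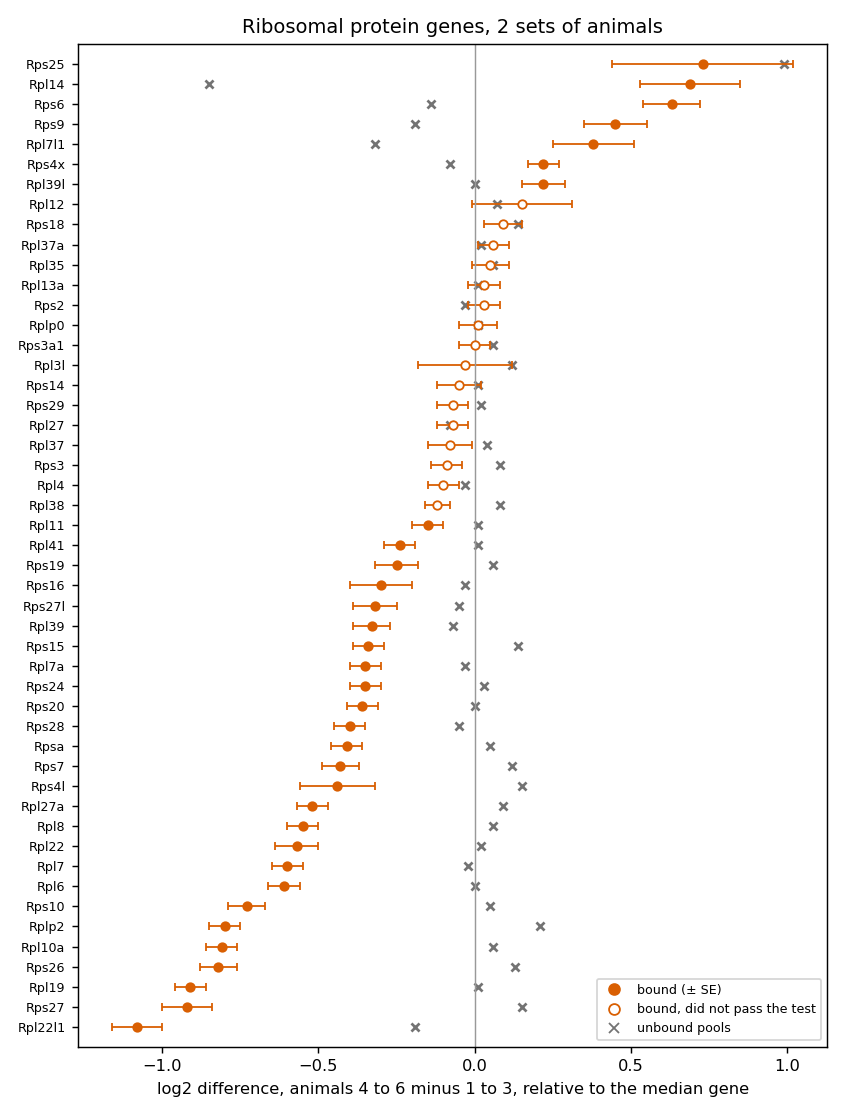
The log2 difference between animals 4 to 6 and animals 1 to 3 (x axis, relative to the median gene) is plotted for each of the 49 genes (rows) in bound arrays (points, bars are SE) and in unbound pools (crosses). Bound values run from -1.08 to 0.73, and most unbound values lie near 0.

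The enrichment in the bound fraction differed accordingly. Within animals 4 to 6, 30 genes were higher and 0 lower, where 36.6% of all genes were higher and 21.3% lower, with a median of 0.22. Within animals 1 to 3, 37 were higher and 3 lower, where 39.3% of all genes were higher and 28.8% lower, with a median of 0.51. Rpl10a gave 0.74 ± 0.09 in animals 4 to 6 and 1.60 ± 0.08 in animals 1 to 3. Rplp2 gave 0.55 ± 0.09 and 1.55 ± 0.08 in the same order, and Rps6 1.45 ± 0.14 and 0.68 ± 0.12. Rplp0 (0.52 and 0.51) and Rps27l (2.50 and 2.77) differed little between the sets.

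Several other measures moved with the sets. The Gapdh difference between 3′ and 5′ control probe sets was 0.97 to 1.04 in animals 4 to 6 and 0.31 to 0.46 in animals 1 to 3, without overlap, while that of Actb overlapped (-0.42 to -0.16 and -0.28 to -0.06). Astrocyte markers summed to log2 levels of 16.73 to 16.87 and 16.75 to 16.92, with 5 of 16 higher and 5 lower in animals 4 to 6. Of all genes 22.9% were higher and 21.0% lower in these animals. Of 14 neuron markers 5 were higher and 4 lower, of 9 oligodendrocyte markers 2 and 1, and of 4 red blood cell markers 1 and 1. Of 9 ependymal and choroid plexus markers 2 were higher and 0 lower (median 0.47). Of 10 meningeal and fibroblast markers 5 were lower and 0 higher in animals 4 to 6, with sums of 11.50 to 12.77, against 12.67 to 13.32 in animals 1 to 3. Of 10 endothelial and mural markers 4 were lower and 0 higher (median -0.30), with sums of 9.26 to 9.69, against 9.63 to 10.01. Most of them had a weak signal, with 8 dim in animals 4 to 6 and 5 dim in animals 1 to 3. Of 9 microglial markers 2 were lower and 0 higher (median -0.30), with sums of 9.21 to 10.15, against 9.61 to 10.43. In the same order, 3 and 1 of the microglial markers were dim. Of 5 oligodendrocyte precursor markers 1 was lower, C1ql1 (-2.02 ± 0.12), and the others did not pass, with Pdgfra at 0.43 and Gpr17 at 0.06. Their sums were 8.36 to 9.10, against 9.47 to 9.99. Their part in the result was not tested, and whether the sets differ in day, litter or handling is not given in the sources used here.

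Values by set also varied between probe sets of the same gene. Of 21 genes with more than 1 bright probe set, 11 had a difference of 1 sign in all of them. Rps9 gave 0.45 ± 0.10 at its brightest probe set and -0.60 ± 0.06 at another, and Rps18 gave 0.09, 0.10 and -0.89. Rps10 was lower in all 5 of its bright probe sets (-0.86 to -0.49), Rpl7 in all 3 (-0.60 to -0.55) and Rps24 in all 4 (-0.39 to -0.23). Among the 24 further genes read from probe sets with several symbols, 15 were lower and 4 higher (median -0.18). Of other lists, 27 of 50 biogenesis genes were higher and 6 lower in animals 4 to 6 (median 0.42), with Ncl at 1.39 ± 0.07, and 11 of 19 other TOP genes were higher and 4 lower (median 0.22). Of mitochondrial ribosomal protein genes 17 were higher and 34 lower (median -0.15).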

How the data were processed

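The deposited table held log2 values of Affymetrix mouse genome arrays made by the authors with RMA, per the submitters' processing notes; its version is not given in the sources used here. Of 45101 probe sets, 64 were controls, 34945 had 1 gene symbol in the array annotation, 932 several and 9160 none. Each of 18193 genes was read from its probe set with the highest mean. Nothing was normalized again. RMA writes no counts, so the number of arrays limits precision. A low signal was judged only against the median of all probe sets.

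Tests were moderated linear models (limma 3.58.1 in R 4.3.3) with Benjamini-Hochberg adjustment over all genes. All 24 arrays in 6 groups entered the comparisons that involve both fractions, and the 18 bound or 6 unbound arrays those of states within a fraction. The sets of animals were compared in bound arrays with state as a term. The code was tested on simulated data. Figures were drawn with matplotlib 3.10.9. All members could be named, with up to 10 of the largest differences in each direction, and Rpl10a, stalk genes, paralogs and the gene at the median always. Rps25 in the states was chosen after its values were seen. The members, gene lists and tests were chosen with earlier results of these data known. For bound against unbound, the marker lists beside those of astrocytes and neurons are given with the other observations.

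Arrays with the same replicate number deviated together in 18 of 18 bound pairs (residual correlation 0.268 to 0.530), and the fit with the number as a block is given beside the state results, which rest on fits without it. The correlation was as high for other numbers of the same set of animals (0.246 to 0.532), so these values show a shared set. Once the sets were removed it was -0.109 to 0.181 for the same number, and other numbers were not compared there. The 6 unbound pairs gave 0.0012 to 0.0288. With 2 pools per group their residuals mirror each other, so pairs of the same states give the same value in both sets of animals. Single animals were hybridized in the bound fraction and pools in the unbound one, and no array was left out.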

Additional observations from a re-analysis of the deposited data

Results flagged for a closer look

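Rps18 had 1 sleep bound array, replicate 1, that lay apart from the other 5 of its group. Its log2 level was 12.58, where the others had 12.79 to 12.87, and the gap was 0.72 of the whole range. It was 1 of 147 groups of 6 arrays examined in this way, and chance sets apart about 1 in 20 groups.

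The effect of waking differed between the fractions in Rpl37 (-0.65) and Rps27l (-0.70), and that of sleep deprivation in Rpl41 (0.76), each as bound minus unbound on the log2 scale. The difference between animals 4 to 6 and animals 1 to 3 was more negative in the bound than in the unbound fraction in 19 genes and more positive in 4.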

How the results depend on the processing

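Over 100 results and 39 alternatives, those on sets of animals within the fraction comparison, Gapdh and probe sets with several symbols were chosen after seeing the data. Single gene values here are as fitted. For bound against unbound, the replicate block (matched pools) left 29 higher and 1 lower. Within animals 4 to 6 the median was 0.22, and within animals 1 to 3 it was 0.51, with 1 unbound pool per state in each set. Quantile normalization gave 7 lower, median centring 23 higher and 9 lower, leaving out dim genes 0 lower, the mean of probe sets 5 lower, leaving out _x_at and _s_at probe sets 4 lower, and the Gapdh covariate 20 higher, 7 lower and a median of 0.00. Leaving out 1 array gave 35 to 38 higher, 1 to 2 lower and medians of 0.31 to 0.36. Without sleep unbound replicate 1 or sleep deprivation unbound replicate 1, 1 was lower. Direction turned with quantile normalization in Rpl13a (-0.08), Rpl37a (-0.08), Rpl38 (-0.03) and Rps3 (-0.01), and with centring in Rpl13a (-0.13), Rpl37a (-0.13), Rpl38 (-0.14), Rps28 (-0.05), Rps29 (-0.05), Rps3 (-0.05) and Rps7 (-0.04). It turned with the mean of probe sets in Rpl27a (-0.09), Rps20 (-0.78) and Rps3 (-0.34), and without _x_at and _s_at probe sets in Rps20 (-2.00) and Rps24 (-0.05). With the Gapdh covariate it turned in Rpl19 (-0.28), Rpl27a (-0.02), Rpl39l (0.06), Rps10 (-0.07), Rps24 (-0.07), Rps26 (-0.13), Rps27 (-0.32), Rps28 (-0.26), Rps4l (-0.15), Rps7 (-0.32) and Rpsa (-0.24). For bound waking against sleep, 5 genes were called with the replicate block or the set as a block, 0 within either set, 6 with the mean of probe sets, 2 with an intensity trend or all 24 arrays, 3 with array weights and 8 with the Gapdh covariate. For bound sleep deprivation against sleep, 6 were called with the replicate block or the mean of probe sets, and 5 with the set as a block or the Gapdh covariate. Within either set, with centring or without dim genes 1 was called, Rps2. Without _x_at and _s_at probe sets, where Rps2 had no value, the 1 call was Rps24 after sleep deprivation and Rpl41 in waking. For sleep deprivation against waking, 1 was called with the set as a block, without _x_at and _s_at probe sets, or with all 24 arrays. Leaving out 1 array gave 1 to 2, 2 to 3 and 0 to 1 calls in these comparisons, with medians of -0.02 to 0.05, -0.07 to 0.00 and -0.08 to -0.01. For unbound waking against sleep, 0 were called with the replicate block, quantile normalization, centring or dim genes left out, 1 without _x_at and _s_at probe sets, and 12 with an intensity trend. Its median was -0.02 with quantile normalization, -0.13 without dim genes, -0.04 with the mean of probe sets and -0.05 without _x_at and _s_at probe sets, and leaving out 1 pool gave 0 calls and medians of -0.11 to -0.03. For unbound sleep deprivation, an intensity trend or all 24 arrays gave 2 calls, and the median was -0.07 without dim genes. Leaving out 1 pool gave 0 calls and medians of -0.05 to -0.02. The waking effect between fractions had 0 calls with the replicate block or without dim genes and 1 without _x_at and _s_at probe sets. Leaving out 1 array gave 1 to 2 calls and medians of 0.05 to 0.13. For sleep deprivation, 0 were called with the replicate block, without dim genes or with the mean of probe sets, and 2 with quantile normalization or a trend. Leaving out 1 array gave 0 to 1 calls and medians of -0.06 to 0.02. For the sets, the median was -0.32 without dim genes, -0.16 with the mean of probe sets (3 higher) and -0.30 without _x_at and _s_at probe sets. Rps4x (-0.02) and Rps9 (-0.08) turned with the mean of probe sets, and Rps20 (0.18) and Rps9 (-0.10) without _x_at and _s_at probe sets. Leaving out 1 array gave 5 to 7 higher, 25 to 26 lower and medians of -0.25 to -0.22. The causes were not tested.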

Other observations

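Markers of other cell types in the bound fraction were read beside the ribosomal protein genes. Bound against unbound, 8 of 9 oligodendrocyte markers were lower and 1 higher (median log2 difference -1.99), 5 of 9 microglial markers were lower and 1 higher (-0.63), 3 of 5 oligodendrocyte precursor markers were lower and 1 higher (-1.02), and 3 of 4 red blood cell markers were lower and 1 higher (-1.32). Of 10 markers of meninges and fibroblasts 8 were higher and 1 lower (1.26), while endothelial and mural markers were higher in 3 of 10 and lower in 4 (-0.48), and ependymal and choroid plexus markers higher in 2 of 9 and lower in 0 (0.77).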
